A study of Mus musculus with 2 samples.

Results

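Collagens are the proteins of the extracellular matrix that fold as triple helices, and they were followed here gene by gene through the cells of mouse liver tumors. All symbols of the form Col, number, a, number were taken from the deposited gene list, 44 of 32285 features, and the 34 with at least 20 UMIs over both libraries are the genes described. A UMI (unique molecular identifier) stands for 1 captured transcript, counted once at its 3′ end whatever its length. The 10 genes left out, all under 20 UMIs, were Col2a1, Col6a4, Col9a1, Col9a2, Col10a1, Col11a1, Col19a1, Col24a1, Col26a1 and Col28a1. Col7a1, with 22 UMIs, lay just inside that limit, and Col24a1 and Col28a1, with 19 each, lay just outside it.

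The tumors were hepatocellular carcinomas (HCC) of C57BL/6J mice, profiled by 10x Genomics droplet RNA sequencing as 2 libraries, 1 wild type (WT) and 1 with Fabp5 deleted in hepatocytes (FABP5 hKO, hKO below). Mice of both groups were littermates that received tamoxifen at 6 to 8 weeks of age, 5 injections of 100 mg/kg every 3 days after 16 h without food. A CD-HFD, commonly a choline-deficient high-fat diet, began 2 weeks after the last injection and lasted 15 months. The deletion in hKO is driven by Alb-CRE-ER, a recombinase that tamoxifen activates and that the albumin promoter restricts to hepatocytes, so every other cell type keeps the gene. The labels do not say whether WT mice carried the recombinase. Each library pooled 2 to 3 tumors digested in collagenase, an enzyme that cuts collagen protein and frees cells unequally from the matrix. With 1 library per group there is no replicate, and no test was made. The values hold for these pools alone, and every 95% interval is one of counting error.

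Fibrillar collagens such as types I, III and V assemble into the rope-like fibers that stiffen a scarred liver, and fibril-associated collagens decorate the surface of those fibers. Type IV collagen forms the sheet of the basement membrane under blood vessels and bile ducts, where laminins, nidogens and perlecan complete the sheet and multiplexins sit at its border with the tissue. Hepatic stellate cells and portal fibroblasts are the known producers of fibrillar collagen in liver fibrosis. The healthy sinusoid, the capillary of the liver, has only a sparse basement membrane, and its gain of a continuous one is called capillarization.

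Before filtering there were 14289 WT barcodes (58772330 UMIs in all) and 18657 hKO barcodes (68010317 UMIs). The libraries stood apart in quality: 18.5% of WT barcodes and 36.8% of hKO barcodes had over 25% mitochondrial UMIs, a sign of damaged cells. After filtering, 9853 WT and 11451 hKO barcodes remained, with median depths of 3932 and 3907 UMIs. The libraries shared 73 barcode sequences, of which 23 fell in the same class in both, and leaving them out moved no count of genes past 1.5 times. Barcodes were sorted into classes by marker genes, none of them a collagen, and each class is named for its markers alone: fibroblast-like (19 WT and 8 hKO barcodes), endothelial-like (1117 and 487), cholangiocyte-like (87 and 42), hepatocyte-like (201 and 749) and immune-like (6883 and 9074). Below, each is called by its cell type without the suffix. In the hepatocyte barcodes Fabp5, the deleted gene, stood at 25.7 CPM (counts per 1000000 UMIs of the class) in WT and 11.3 CPM in hKO. These were 50 and 24 UMIs, a log2 ratio of −1.19 (−1.96 to −0.46), and its 3′ counts do not show which exons were deleted. The median gene of these barcodes stood at −1.0, inside that interval, and 48.6% of their genes were lower in hKO by the rule of size used below, so its value does not by itself check the labels. RNA of hepatocyte genes reached other cells in both libraries: the 12 hepatocyte markers took 0.213% of the UMIs of WT T cell barcodes and 0.473% in hKO.

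Basement membrane collagens led the counts. The 6 type IV genes held 18290 UMIs over both libraries, 8 fibrillar genes 4763, 2 multiplexins 4695, 4 transmembrane collagens 2253 and 6 fibril-associated genes 1211. The 2 short-chain genes held 449, the 5 type VI genes, which form beaded microfibrils, 388, and Col7a1, the anchoring fibril gene, 22. Col4a1, a ubiquitous type IV chain, held 10959 UMIs and its partner Col4a2 6646. Next came Col18a1, the source of endostatin, with 4207, Col5a2, a chain of type V collagen that regulates fiber width, with 2759, and Col13a1, a transmembrane collagen at cell adhesions, with 1739.

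Per UMI the fibroblast barcodes were the richest in collagen, and in total the endothelial barcodes held most of it. In WT all members together reached 16113 CPM in fibroblasts, 1507.9 in endothelium, 518 in cholangiocytes, 188 in hepatocytes and 30.1 in immune barcodes. In hKO the same levels were 7102.1, 2742.8, 600, 431 and 46.3 CPM, so the order of the classes was the same in both libraries and no neighbors in that order had overlapping intervals in either library. Endothelial barcodes held 63% of the collagen UMIs of kept WT barcodes and 54.1% in hKO. The few fibroblasts held 7.11% and 0.446%. Barcodes carrying markers of more than 1 class, which enter no class, held 15.4% in each library.

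**Figure D1:**
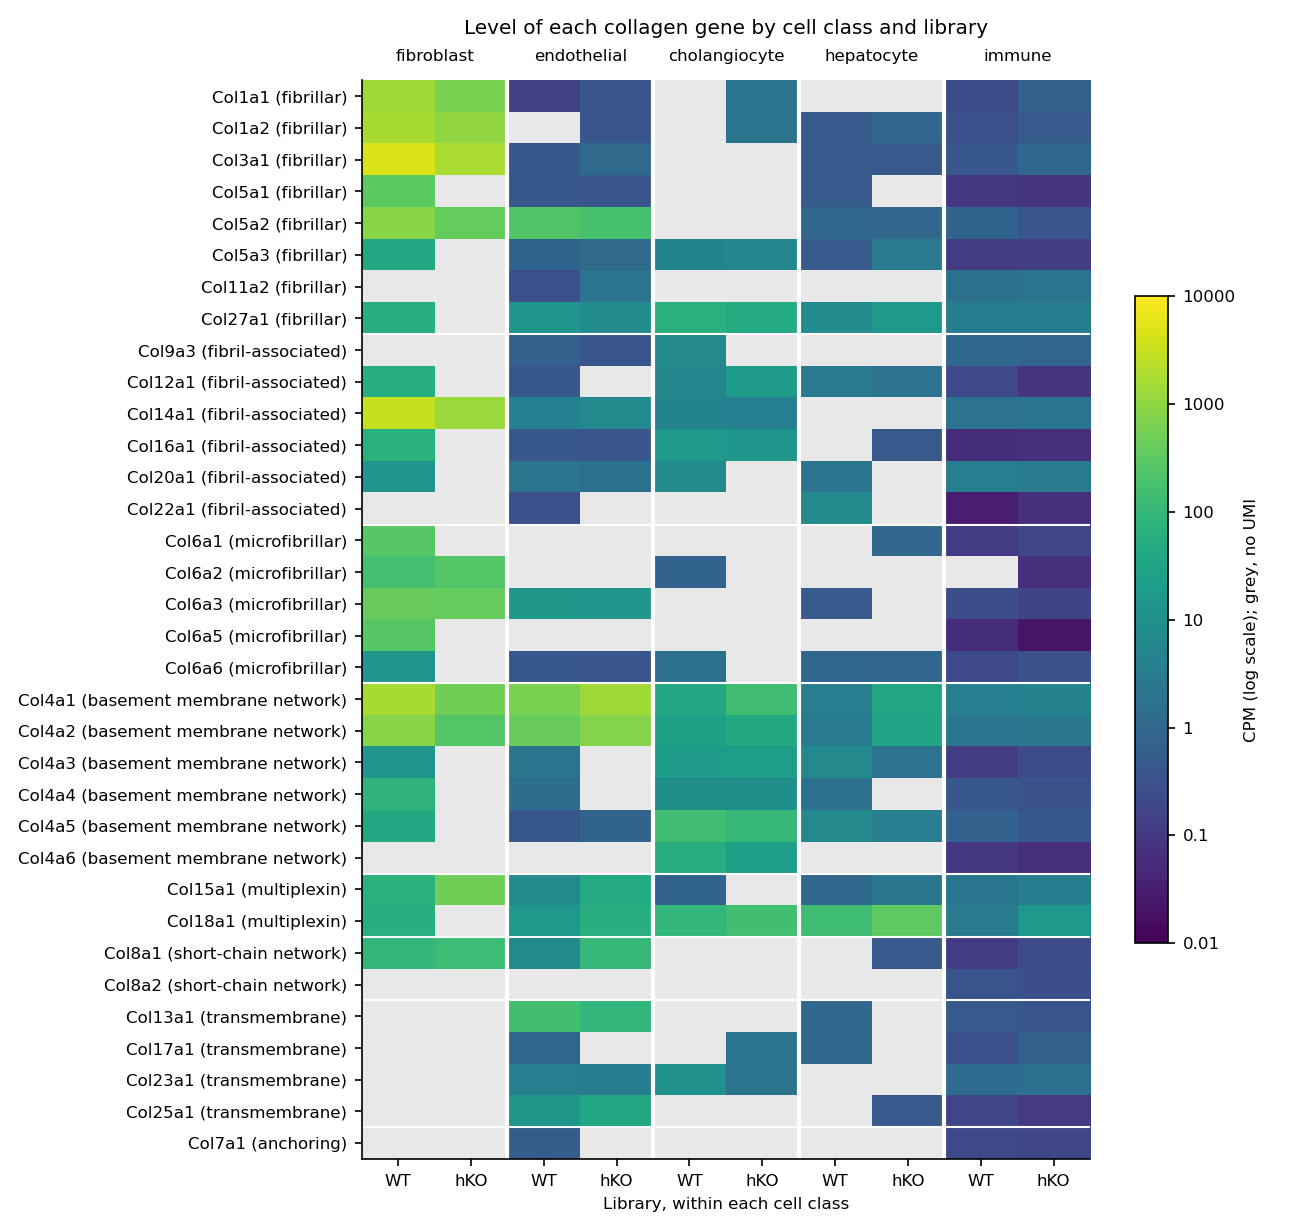
Level of each of the 34 collagen genes (rows, grouped by collagen class) in the 5 marker-defined cell classes, WT and hKO side by side. Color gives CPM on a log scale and grey marks no UMI. Col1a1, Col1a2, Col3a1 and Col14a1 are brightest in the fibroblast columns of both libraries, Col4a1 and Col4a2 in WT fibroblasts and hKO endothelium, Col4a5 and Col4a6 in cholangiocytes and Col18a1 in hepatocytes.

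By gene, the class with the highest level was set from values above 3 UMIs. In WT it was the fibroblasts for 17 genes, cholangiocytes for 8, endothelium for 4, immune barcodes for 3 and hepatocytes for 2. In hKO, where the fibroblasts were 8 shallow barcodes, it was immune barcodes for 9, endothelium for 8, cholangiocytes for 7, fibroblasts for 5 and hepatocytes for 2, and 3 genes (Col6a2, Col6a5 and Col22a1) had no class above that floor. The genes with the same top class in both libraries were Col1a1, Col1a2, Col3a1, Col14a1 and Col15a1 in fibroblasts, Col13a1 and Col25a1 in endothelium, Col4a3, Col4a5, Col4a6 and Col27a1 in cholangiocytes, Col18a1 in hepatocytes, and Col6a6, Col8a2 and Col11a2 in immune barcodes. For Col15a1 in hKO that place rested on 4 UMIs. The floor falls at a lower CPM in a deeper class. In hKO, 4 UMIs stood at 507 CPM in fibroblasts and 0.0837 CPM in immune barcodes. Some genes were therefore placed in a class whose level was under that of a class left out by the floor. In hKO, Col5a2 and Col6a3 stood at 180 and 13.7 CPM in endothelium and 380 CPM each in fibroblasts. In WT, Col6a6 stood at 0.208 CPM in immune barcodes and 0.432 CPM in endothelium.

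To compare the libraries, a gene was counted as higher or lower in hKO when it had at least 20 UMIs over both libraries in the class, a ratio 1 or more log2 units from 0 and a 95% interval that excluded 0. The share of all genes past the same rule is given beside each count. Collagen genes past the rule were lower in the fibroblasts and higher in endothelium and hepatocytes. In cholangiocytes 1 of 8 tested genes was higher and 1 lower, 12.5% each, against 4.46% and 6.27% of all genes. In immune barcodes 4 of 20 were higher, 20% against 5.14% of all genes. The 1 immune gene that was lower, 5%, was near the 5.14% of all genes that were lower. The differences between classes were not tested.

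**Figure D2:**
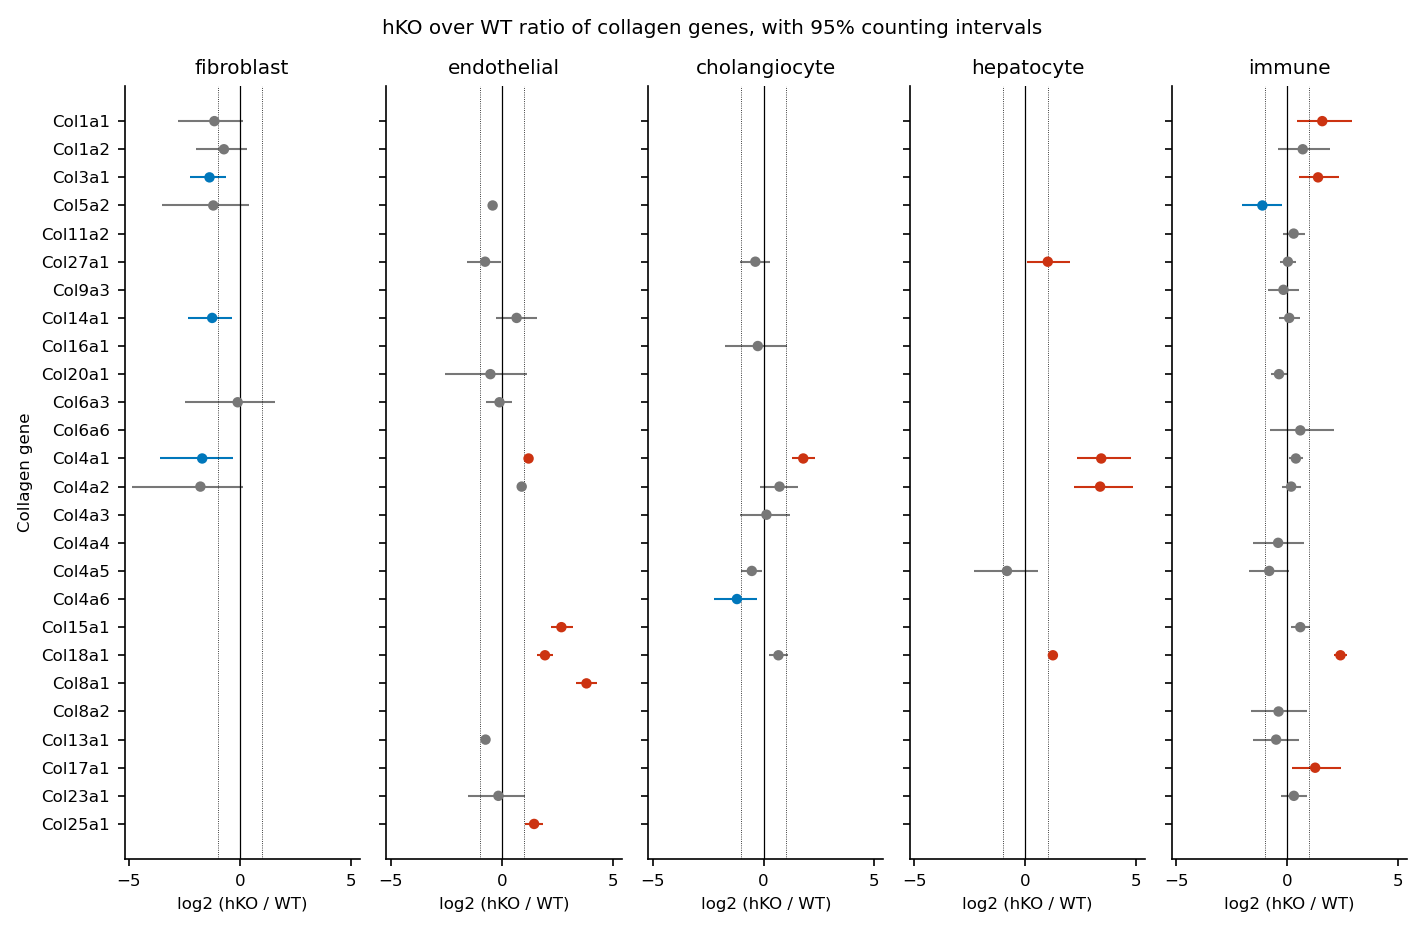
The log2 ratio of hKO over WT (horizontal axis, line at 0, dotted lines at 1 in size) for collagen genes with enough UMIs in each of the 5 cell classes, with 95% counting intervals. Red points were past the rule as higher in hKO, blue points as lower and grey points as neither; bounds from a count of 0 are not drawn. Col8a1 in endothelium has the largest ratio, 3.82.

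Collagen levels of fibroblasts were lower in hKO, on very few cells. Summed collagen was 16113 CPM in the 19 WT barcodes (1183 UMIs) and 7102.1 CPM in the 8 hKO barcodes (56 UMIs), a log2 ratio of −1.18 (−1.60 to −0.79). Of the 34 genes, 11 had enough UMIs: 3 were lower and 0 higher, 27.3% lower against 10.2% of all 635 genes tested in this class, where 12.4% were higher. The median log2 ratio of the 11 was −1.15, with counts of 0 at their bound, and that of all genes −0.10.

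Among the fibrillar genes, Col3a1, which forms the thin fibers of early scars, had 338 UMIs in WT and 14 in hKO, or 4603.8 and 1775.5 CPM, a log2 ratio of −1.37 (−2.26 to −0.61). Col1a1 and Col1a2, the chains of type I collagen, stood at 1402.9 and 634 CPM and at 1675.3 and 1014.6 CPM. Their log2 ratios, −1.15 (−2.80 to 0.12) and −0.72 (−1.97 to 0.30), had intervals that included 0. Col5a2 had 64 and 3 UMIs, 872 and 380 CPM. Col14a1, a fibril-associated collagen of dense tissue, had 221 and 10 UMIs, 3010.2 and 1268.2 CPM, and a log2 ratio of −1.25 (−2.33 to −0.34). Fibrillar genes took 55.6% of the fibroblasts' collagen UMIs in WT and 53.6% in hKO, type IV genes 16.5% and 10.7%, and multiplexins 0.761% and 7.14%, the last being 9 and 4 UMIs.

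Fibroblasts also carried basement membrane collagen. Col4a1 had 121 and 4 UMIs there, 1648.1 and 507 CPM, with a log2 ratio of −1.70 (−3.60 to −0.31), while Col4a2, at 64 and 2 UMIs, had an interval reaching past 0 (−1.78, −4.86 to 0.13). Type VI collagen, a scaffold around cells, showed Col6a1 at 20 UMIs, Col6a2 at 12 and Col6a3 at 30 in WT. In hKO these were 0, 2 and 3 UMIs, and Col6a3, at 409 and 380 CPM, had a log2 ratio of −0.10 (−2.46 to 1.58). Col5a1, Col6a1 and Col6a5 had 23, 20 and 20 UMIs in WT and 0 in hKO, a loss not detectable at the depth of the hKO fibroblasts, whose 7885 UMIs allow up to 3 counts of each.

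The fibroblast values rested on single barcodes. In WT the richest pair of barcodes held 585 of the 1183 collagen UMIs, 49.5%, and in hKO the richest pair held 29 of 56, 51.8%. The median barcode held 23 collagen UMIs in WT and 5 in hKO, at median depths of 1905 and 792 UMIs. At least 3 stellate markers were found in 12 of 19 WT and 3 of 8 hKO barcodes, at least 3 mural markers in 9 and 2, and at least 3 portal fibroblast markers in 0 and 0. Hepatocyte markers took 0.27% of their UMIs in WT and 1.67% in hKO, and the median mitochondrial share was 16.3% and 20.7%, and the part of these differences in the collagen ratio was not tested. As a mean over barcodes, in which each barcode weighs the same, the log2 ratio of summed collagen was −0.59, and with barcodes of at least 1000 UMIs it was −2.23. Under a mitochondrial limit of 10% no hKO fibroblast barcode remained.

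**Figure D3:**
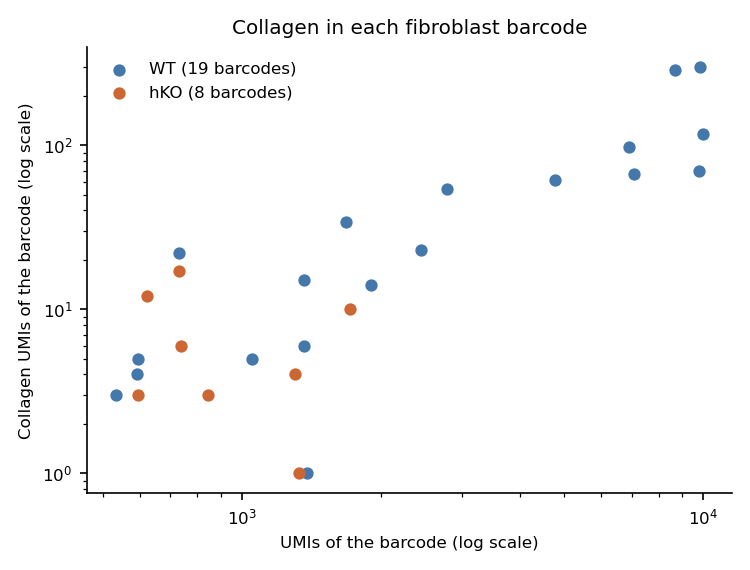
Collagen UMIs of each fibroblast barcode (vertical axis, log scale) against all its UMIs (horizontal axis, log scale), WT in blue and hKO in orange. WT barcodes reach 9966 UMIs and 299 collagen UMIs, and the 8 hKO barcodes lie between 596 and 1719 UMIs with at most 17 collagen UMIs.

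In endothelium, summed collagen was 1507.9 CPM in WT (10476 UMIs) and 2742.8 CPM in hKO (6789 UMIs), a log2 ratio of 0.86 (0.82 to 0.91), or 0.97 relative to the median gene of the class, which shifted by −0.11. Of 13 genes with enough UMIs, 5 were higher in hKO, Col4a1, Col8a1, Col15a1, Col18a1 and Col25a1, and 0 lower, 38.5% against 4.64% of all 12212 genes tested, of which 4.63% were lower. The median log2 ratio of the 13 was 0.67.

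The vascular basement membrane chains carried most of this difference. Col4a1 stood at 619 CPM in WT and 1429 CPM in hKO, a log2 ratio of 1.21 (1.14 to 1.27). Col4a2, the partner that joins 1 chain to a pair of Col4a1 chains in the triple helix, stood at 407 and 758 CPM, a log2 ratio of 0.90 (0.81 to 0.98), which is under the rule's limit of 1. The ratio of Col4a1 to Col4a2 UMIs was 1.52 (1.45 to 1.59) in WT and 1.89 (1.78 to 2) in hKO, so the difference between libraries was larger for Col4a1. Both chains were found together in 686 of 1117 WT and 348 of 487 hKO endothelial barcodes, and neither in 178 and 39. The pair lies head to head on chromosome 8 of GRCm38.p6, with start sites 21 bases apart on opposite strands. Type IV genes took 68.3% of endothelial collagen UMIs in WT and 79.7% in hKO.

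Col8a1, a short-chain collagen of vessel walls that forms hexagonal lattices, had the largest ratio. It had 48 UMIs in WT and 242 in hKO, 6.91 and 97.8 CPM, a log2 ratio of 3.82 (3.37 to 4.30). The UMIs came from 15 of 1117 WT barcodes (1.34%) and 39 of 487 hKO barcodes (8.01%), with at most 9 and 32 in 1 barcode. Col15a1, a multiplexin of the outer face of vascular basement membranes, had 50 and 115 UMIs, 7.2 and 46.5 CPM, and a log2 ratio of 2.69 (2.20 to 3.20). It was found in 24 WT and 57 hKO barcodes. Col18a1, the other multiplexin, stood at 15.5 and 60.2 CPM, a log2 ratio of 1.95 (1.59 to 2.32). Col25a1, a transmembrane collagen known from neurons, stood at 14.7 and 40.4 CPM, a log2 ratio of 1.46 (1.05 to 1.87).

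Most other collagens tested in endothelium were at similar or lower levels in hKO. The exception was Col14a1, with 30 UMIs in WT and 17 in hKO. Its log2 ratio was 0.67, or 0.78 (−0.17 to 1.68) relative to the median gene. Col13a1 had 1048 and 225 UMIs, 151 and 90.9 CPM, a log2 ratio of −0.73 (−0.94 to −0.52). Col5a2 stood at 238 and 180 CPM, a log2 ratio of −0.41 (−0.56 to −0.26), and was the only fibrillar gene above 100 CPM in endothelium. Col27a1, a fibrillar collagen best known from cartilage, stood at 13 and 7.68 CPM. Col6a3 had 102 and 34 UMIs (14.7 and 13.7 CPM) while Col6a1 and Col6a2, the chains it assembles with, had 0 UMIs in any endothelial barcode of either library, which allows levels of each up to 0.531 CPM in WT and 1.49 CPM in hKO by the Poisson interval.

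The endothelial barcodes were not the same mixture in the 2 libraries. By marker counts, 831 of 1117 WT barcodes (74.4%, Clopper-Pearson 95% interval 71.7 to 76.9) and 218 of 487 hKO barcodes (44.8%, 40.3 to 49.3) carried sinusoidal markers such as Stab2 and Clec4g. Other endothelial markers such as Vwf and Cd34, found on larger vessels and on capillaries with a basement membrane, led in 71 WT (6.36%) and 154 hKO barcodes (31.6%), and 215 and 115 fell in neither subset. Within each subset the ratio of summed collagen was smaller: 1310.5 and 1564.3 CPM in the sinusoidal barcodes, a log2 ratio of 0.26 (0.18 to 0.33), and 2811.2 and 4496.0 CPM in the other endothelium, 0.68 (0.58 to 0.77). Relative to the median genes of those subsets, which shifted by −0.15 and −0.11, these were 0.41 and 0.79.

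Several collagen genes differed in level between the marker-defined endothelial subsets within each library. Col4a1 was higher in the other endothelium than in sinusoidal barcodes, 1382.5 against 536 CPM in WT and 2520.2 against 729 CPM in hKO. Col15a1 was nearly absent from sinusoidal barcodes, with 3 UMIs in WT and 1 in hKO, against 73 and 125 CPM in the other endothelium. Col13a1 ran the opposite way, at 160 and 151 CPM in sinusoidal barcodes and 26.8 and 13.9 CPM in the others, a log2 difference between subsets of −2.58 (−3.58 to −1.73) in WT and −3.44 (−4.47 to −2.57) in hKO. Col5a2 differed less, at 199 CPM in sinusoidal and 200 CPM in other endothelium of WT, and 171 and 135 CPM in hKO, a log2 difference of −0.34 (−0.70 to 0.00).

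Between the libraries, the subsets differed in what passed the rule. In sinusoidal barcodes 3 of 8 tested genes were higher, Col6a3, Col18a1 and Col25a1, and 0 lower, against 2.45% of all genes higher and 4.58% lower. Col18a1 stood there at 6.72 and 25.6 CPM, a log2 ratio of 1.93 (1.17 to 2.67). In hKO it had 29 UMIs, in 28 of 218 barcodes. Col6a3 rested on 14 UMIs in 12 WT barcodes and 10 UMIs in 5 hKO barcodes. Col25a1 was found in 5.42% of WT and 6.42% of hKO barcodes, and in hKO 5 barcodes held 21 of its 32 UMIs. Col13a1 differed little between libraries within the sinusoidal barcodes, with a log2 ratio of −0.08 (−0.33 to 0.16), against −0.73 in all endothelium. With a mitochondrial limit of 10%, 0 genes were higher in sinusoidal barcodes and the Col25a1 ratio turned to −0.85.

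In the other endothelium 1 of 9 tested genes was higher, Col8a1, and 1 lower, Col6a3, against 4.7% of all genes higher and 5.4% lower. Col8a1 had 7 UMIs in 71 WT barcodes and 191 in 154 hKO barcodes, 17 and 241 CPM, a log2 ratio of 3.82 (2.75 to 5.15), as large as in all endothelium. Its 28 hKO barcodes held at most 24 UMIs each. Col6a3 had 51 and 18 UMIs, 124 and 22.7 CPM, a log2 ratio of −2.45 (−3.32 to −1.65), and 18 of the 51 WT UMIs came from 1 barcode. Col15a1 had a log2 ratio of 0.77 (0.17 to 1.41) there, against 2.69 in all endothelium. Col4a1, at 0.87 (0.73 to 1.00), was just under the limit.

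Beside these values, hepatocyte markers took 0.23% of endothelial UMIs in WT and 0.53% in hKO. The fibroblast list stood at 0.00212% (15 of 20 markers found) and 0.00186% (11 of 20), and Col1a1 and Col1a2 together had 1 UMI in WT and 2 in hKO. The median mitochondrial share was 6.79% and 12.3%, and its part in the ratios was not tested.

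**Figure D4:**
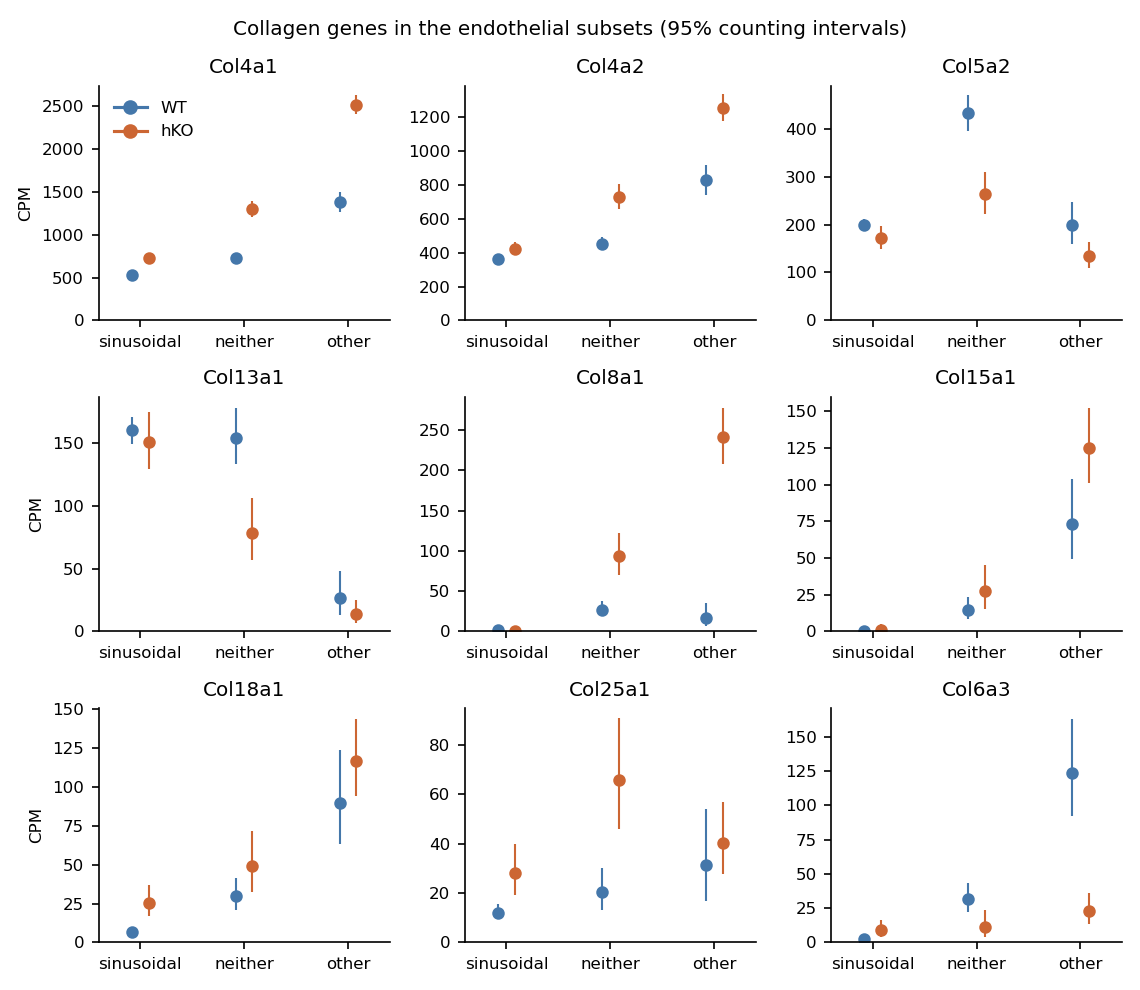
CPM of 9 collagen genes (vertical axes, from 0, each panel on its own scale) in sinusoidal endothelial barcodes, those in neither subset and other endothelial barcodes, WT in blue and hKO in orange, with 95% Poisson intervals. Col4a1, Col4a2, Col15a1 and Col18a1 climb from sinusoidal to other endothelium in both libraries, Col13a1 descends, and Col8a1 in hKO reaches 241 CPM in the other endothelium.

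For 3 of these genes, with unlike patterns over the endothelial subsets, the 150 bases before the RefSeq start site are shown (GRCm38.p6, 5′ to 3′ on the gene's strand), Col8a1 and Col15a1 for their higher hKO levels and other-endothelium bias and Col13a1 for its sinusoidal bias. Capitals mark the GC box GGGCGG, read on both strands, the motif of Sp1-type factors.

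Col8a1, chr16:57754738-57754887, minus strand: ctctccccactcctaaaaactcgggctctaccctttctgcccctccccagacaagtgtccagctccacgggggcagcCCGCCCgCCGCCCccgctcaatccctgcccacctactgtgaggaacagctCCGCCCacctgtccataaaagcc
Col15a1, chr4:47207862-47208011, plus strand: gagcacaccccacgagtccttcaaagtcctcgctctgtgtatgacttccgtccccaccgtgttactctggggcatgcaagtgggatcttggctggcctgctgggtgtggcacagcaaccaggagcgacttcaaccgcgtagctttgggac
Col13a1, chr10:61979109-61979258, minus strand: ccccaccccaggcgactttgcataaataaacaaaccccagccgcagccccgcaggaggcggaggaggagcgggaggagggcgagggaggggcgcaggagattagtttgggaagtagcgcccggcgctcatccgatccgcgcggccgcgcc

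No annotated exon lies in the 3 windows. The Col8a1 window holds 3 GC boxes, none overlapping, which begin 73, 66 and 23 bases before the start, and the other 2 windows hold none. The TATA box TATAAA, the CCAAT box CCAAT and AGGAAG, a form of the ETS motif, were searched on both strands. They had no match in the 3 windows. Other forms of the ETS motif, that of an endothelial factor family, were not searched. Of 32851 such windows in the table, 28.6% hold a GC box, 7.57% TATAAA, 24.5% CCAAT and 19.7% AGGAAG. Of the 27 members with a window, 16 (59.3%) hold a GC box, 3 TATAAA, 6 CCAAT and 3 AGGAAG. A match describes letters in this window and does not show that a factor binds.

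Genes that build the same basement membrane were in part higher in hKO endothelium as well. Of 15 listed partners of type IV collagen, 11 had enough UMIs, and 5 were higher (Lama3, Lama5, Lamb1, Lamc1 and Nid2) and 0 lower, against 4.64% of all genes higher and 4.63% lower. The median log2 ratio of the 11 was 0.70, against −0.11 for all genes. Lamc1, the γ1 chain shared by most laminins, stood at 79.5 and 199 CPM, a log2 ratio of 1.32 (1.14 to 1.50). Nid2, a nidogen that links laminin to type IV collagen, stood at 10.9 and 50.5 CPM, 2.21 (1.78 to 2.64). The 4 partners with the most UMIs were under the limit: Sparc, a collagen-binding glycoprotein, at 0.41, Lama4, the main vascular laminin α chain, at −0.22, Hspg2, the core of perlecan, at 0.46 and Nid1 at 0.45. In sinusoidal barcodes 0 of 10 tested partners were higher or lower (2.45% and 4.58% of all genes), and in the other endothelium 3 of 11 were higher (Lama3, Lamc1 and Nid2) and 0 lower (4.7% and 5.4% of all genes).

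Of 19 genes for collagen modification and folding, 18 were tested in endothelium, 2 were higher and 0 lower, against 4.64% of all endothelial genes higher and 4.63% lower, which also holds for the 3 lists that follow. Serpinh1, the chaperone HSP47 that binds only folded procollagen, stood at 77.3 and 170 CPM, a log2 ratio of 1.13 (0.95 to 1.32), and P3h4 was the other. Ppib, P4hb and P3h2, the other 3 with the most UMIs, an isomerase and hydroxylases of procollagen, had log2 ratios of −0.61, 0.67 and −0.99. Of 13 trimming and cross-linking genes, 5 were tested and Bmp1, the protease that removes the tail of procollagen, was higher (3.74 and 17.8 CPM, 2.25, 1.52 to 3.01). Of 10 collagen receptors 5 were tested and 2, Itga2 and Ddr2, were higher, while Itga1, the integrin chain with the most UMIs, stood at 933 and 710 CPM. Of 12 fibrillar matrix partners 7 were tested and Fn1 and Thbs1 were higher.

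In fibroblasts fewer partners could be tested, and 10.2% of all genes of the class were lower and 12.4% higher. Sparc had 475 and 9 UMIs (6469.8 and 1141.4 CPM, −2.50, −3.64 to −1.57) and, with Lama2, was lower among 4 tested basement membrane partners. Postn and Dcn, which organize collagen fibers, were lower among 7 fibrillar matrix partners, but Dcn was also a marker of the class. Itga1 was lower among 3 receptors. All of these ratios rest on the same 8 hKO barcodes.

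Cholangiocytes, the cells lining bile ducts, held the tissue-restricted type IV chains. Col4a5, a chain of the epithelial networks, had 173 and 50 UMIs (144 and 99.6 CPM), a log2 ratio of −0.53 (−1.02 to −0.07). Col4a6, which pairs with Col4a5, had 66 and 12 UMIs (55.1 and 23.9 CPM), a log2 ratio of −1.20 (−2.23 to −0.30), and was the 1 gene lower among 8 tested. Col4a3, a chain of the kidney-type network, stood at 20 and 21.9 CPM. Col4a1 was the 1 gene higher, with 51 and 74 UMIs (42.6 and 147 CPM), 1.79 (1.26 to 2.34), and Col4a2 stood at 26.7 and 43.8 CPM. These compare with 4.46% of all genes higher and 6.27% lower.

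The ratio of Col4a1 to Col4a2 UMIs in this class was 1.59 (1 to 2.56) in WT and 3.36 (2.07 to 5.69) in hKO, with overlapping intervals. Col18a1 stood at 95.1 and 151 CPM, a log2 ratio of 0.67 (0.23 to 1.10), and Col27a1 at 64.2 and 49.8 CPM. Summed collagen was 518 and 600 CPM, 0.21 (0.01 to 0.41). Markers of the fibroblast list took 0.0352% of cholangiocyte UMIs in WT and 0.141% in hKO (7 of 20 markers found in each), and their part in these ratios was not tested. With doublets called by Scrublet also removed, Col4a6 was no longer lower by the rule.

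Hepatocyte collagen was mostly Col18a1 in both libraries. It had 269 and 698 UMIs, 138 and 327 CPM, a log2 ratio of 1.24 (1.04 to 1.45), and multiplexins took 74.2% and 76.4% of the class's collagen UMIs. Summed collagen was 188 and 431 CPM, 1.20 (1.03 to 1.38). Of 5 tested genes 4 were higher and 0 lower, against 9.7% of all genes higher and 48.6% lower. The median gene of the class shifted by −1.0, and relative to it the log2 ratio of summed collagen was 2.20 and that of Col18a1 2.24. The 201 WT barcodes held 1946053 UMIs at a median depth of 1689, and the 749 hKO barcodes 2132660 at 1436. Deep barcodes thus weigh more in the WT levels, and their part in the shift of the median gene was not tested. As a mean over barcodes, summed collagen was 167 and 509 CPM, a log2 ratio of 1.61.

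The 3 other genes past the rule were low in WT. Col4a1 had 7 UMIs in WT and 82 in hKO (3.6 and 38.4 CPM), 3.42 (2.31 to 4.78), and Col4a2 6 and 68 (3.08 and 31.9 CPM), 3.37 (2.17 to 4.87). The hKO UMIs of Col4a1 came from 65 of 749 barcodes with at most 5 in 1. Col27a1 had 15 and 33 UMIs, 1.01 (0.08 to 1.99). Endothelial markers took 0.012% of hepatocyte UMIs in WT (19 of 20 found) and 0.00853% in hKO (16 of 20). The sinusoidal list took 0.00755% and 0.00731%, and the list of other endothelium, the subset richer in Col4a1, took 0.000976% and 0.00469%. The part of endothelial RNA in these ratios was not tested. Col4a1 stood at 5.49 CPM in hKO T cell barcodes, and the Col4a1 to Col4a2 ratio was 1.21 (0.864 to 1.69) in hKO hepatocytes and 1.89 (1.78 to 2) in hKO endothelium.

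Col22a1, found at tissue junctions, had 14 UMIs in 6 WT hepatocyte barcodes and 0 in hKO, and Col4a3 had 13 and 4 UMIs, too few for the rule. The hepatocytes differed in quality, with a median mitochondrial share of 10.1% in WT and 19.4% in hKO, and under a mitochondrial limit of 10% the summed ratio was 0.77 and 1 gene was higher. Col18a1 itself stood at 0.73 under that limit. A further 1341 Col18a1 UMIs lay in hKO barcodes over the 25% limit, against 87 in WT.

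Immune barcodes had little collagen, and what differed was mainly Col18a1. Of 20 tested genes 4 were higher (Col1a1, Col3a1, Col17a1 and Col18a1) and 1 lower (Col5a2), against 5.14% of all genes higher and 5.14% lower, and with scaling to the median gene, which shifted by −0.12, 0 were lower. Summed collagen was 30.1 and 46.3 CPM, a log2 ratio of 0.62 (0.52 to 0.73), and 0.74 relative to the median gene. Col18a1 had 103 and 770 UMIs, 3.06 and 16.1 CPM, 2.40 (2.10 to 2.71). It was higher in every one of the 8 subsets drawn, for example at 3.5 and 14.3 CPM in T cells, 4.05 and 19 in macrophages and 2.82 and 21.1 in B cells.

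Beside these Col18a1 values, the hepatocyte marker list took 0.213% of immune UMIs in WT and 0.532% in hKO. As an estimate of free RNA, the mean UMIs of each gene per T cell barcode were subtracted for every barcode of a class, with sums below 0 set to 0. T cells are themselves part of the immune class. After this, summed immune collagen was 7.24 and 7.3 CPM, a log2 ratio of 0.01. Col18a1 had no ratio under that subtraction, because none of its immune UMIs remained in either library. The ratios of Col1a1 and Col5a2 turned to −0.44 and 0.73. Col3a1, at 14 and 52 UMIs, kept 1.16 of its log2 ratio of 1.39 (0.52 to 2.35). Assigning barcodes with markers of 2 classes gave a summed ratio of 0.01 in another way, since both levels rose, to 61.6 CPM in WT and 61.9 CPM in hKO. Among the barcodes with markers of 2 classes, 332 in WT and 177 in hKO joined endothelial and immune markers. They held 2348 and 1542 collagen UMIs, against 1012 and 2213 in the immune class itself.

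A few collagens were concentrated in 1 immune subset. Col17a1, a transmembrane collagen of hemidesmosomes, had 9 of its 10 WT and 26 of its 34 hKO immune UMIs in plasmacytoid dendritic cells, where its level was 3.41 and 3.56 CPM, a log2 ratio of 0.06 (−1.08 to 1.34). These cells numbered 366 in WT and 1136 in hKO, against a log2 ratio of 1.26 (0.21 to 2.44) over all immune barcodes. Col27a1 was highest in conventional dendritic cells, at 33.8 and 21.9 CPM (31 and 23 UMIs), against 2.87 and 2.45 CPM in macrophages. Col11a2, a fibrillar chain of cartilage, stood at 3.13 and 4.89 CPM in macrophages and 1.59 and 1.65 in T cells. Col20a1, a fibril-associated collagen, stood at 5.09 and 2.45 CPM in macrophages. Col23a1, a transmembrane collagen, was highest in conventional dendritic cells, at 7.63 and 8.59 CPM.

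**Figure D5:**
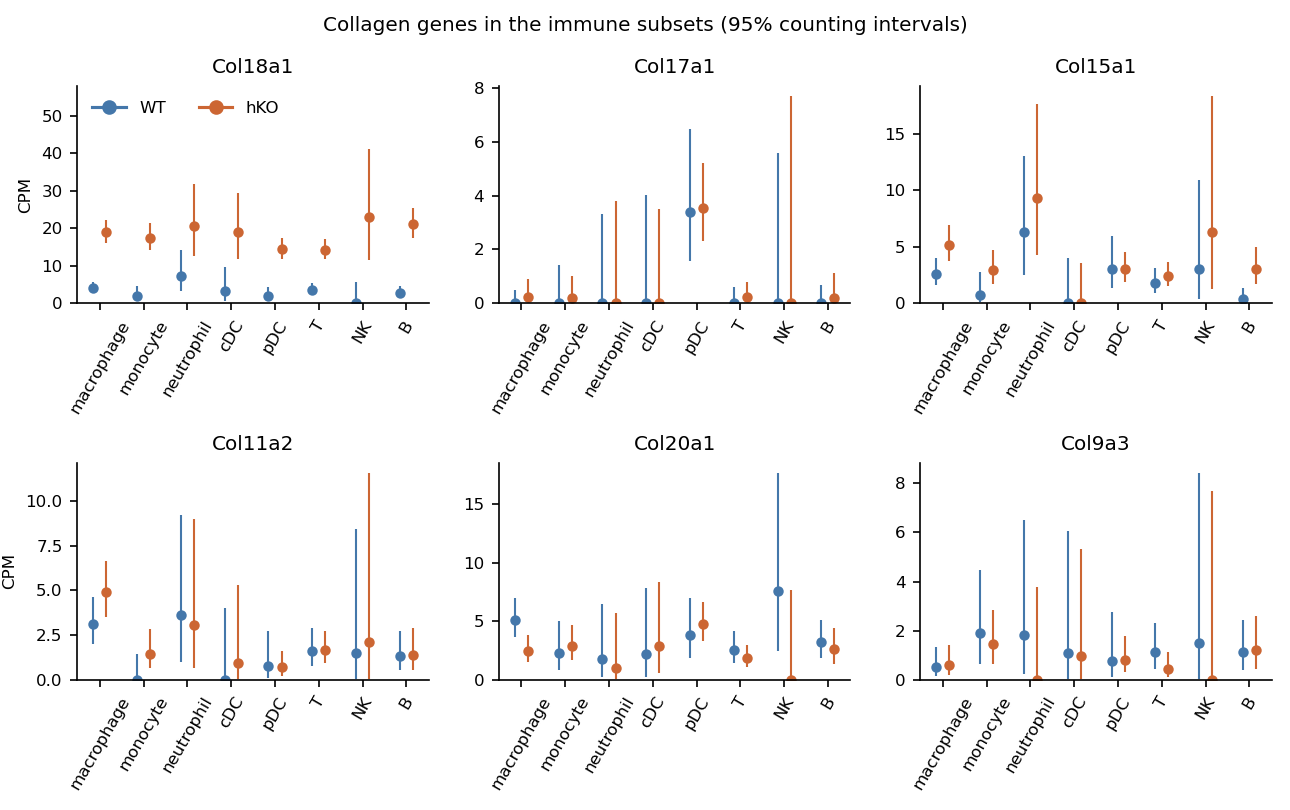
CPM of 6 collagen genes (vertical axes, from 0, each panel on its own scale) in 8 immune subsets (cDC and pDC, conventional and plasmacytoid dendritic), WT in blue and hKO in orange, with 95% Poisson intervals. Col18a1 is higher in hKO in each subset, and Col17a1 stands at 3.41 and 3.56 CPM in pDC.

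The share of barcodes with at least 1 collagen UMI was higher in hKO in endothelium, hepatocytes and immune barcodes. It was 89.8% in WT and 96.9% in hKO endothelium, 38.8% and 54.5% in hepatocytes and 11.8% and 18.8% in immune barcodes, beside 10.8% and 18.1% in T cells, which should lack most collagens, at median depths of 4010 and 4382 UMIs. Thinned to 1000 UMIs per barcode, the shares were 67.1% and 76.4% in endothelium (38 and 4 shallower barcodes left out), 16.4% and 37.2% in hepatocytes (61 and 230 left out), and 2.87% and 4.53% in immune barcodes, beside 2.47% and 4.02% in T cells. The T cell barcodes, 1341 in WT and 1523 in hKO, are part of the immune class, so only the shares of the other classes can be read against them, and those of endothelium and hepatocytes lay above them. Cholangiocytes stood at 93.1% and 95.2%, and thinned at 40.7% and 38.1%.

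The 16 genes with under 100 UMIs in the 5 classes were Col4a3, Col4a4, Col4a6, Col5a1, Col5a3, Col6a1, Col6a2, Col6a5, Col6a6, Col7a1, Col8a2, Col9a3, Col12a1, Col16a1, Col17a1 and Col22a1. Besides those described, Col12a1, a fibril-associated collagen of stressed tissue, had 7 and 10 UMIs in cholangiocytes (5.84 and 19.9 CPM) and Col16a1 20 and 7 (16.7 and 13.9 CPM). Col8a2, the partner chain of Col8a1, had 12 and 13 UMIs in immune barcodes and none in endothelium. Col9a3 had 34 and 43 UMIs in immune barcodes, about 1 CPM, and its gene overlaps Tcfl5 on the other strand, as Col18a1 overlaps Slc19a1. The sources used here do not give whether reads were assigned by strand, and the part of such partners in these counts was not tested.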

How the data were processed

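The deposited files hold whole-number UMI counts per gene and barcode, made by Cell Ranger 7.1.0 per the file headers and not normalized. The submitters' processing notes name Cell Ranger, R 3.0, Seurat 3 and build mm9; the annotation, intron counting and strand are not given in the sources used here. Other deposited columns name genes and barcodes, unchanged. All barcodes had at least 500 UMIs, and 2645 WT and 6864 hKO barcodes over 25% mitochondrial UMIs and 2224 and 593 under 200 genes were removed, some for both reasons.

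A barcode joined a class with at least 3 fibroblast, 5 endothelial, 3 cholangiocyte, 8 hepatocyte or 3 immune markers and at least 0.2%, 0.2%, 0.1%, 5% or 0.2% of its UMIs from that list. These limits were set after seeing the data. Barcodes of 2 or more classes, 540 in WT and 372 in hKO, entered none, which also served against doublets. In fibroblasts 2 barcodes of each library lay near the cut, at the minimum of 3 markers or under 1.25 times the share limit. The endothelial subsets needed at least 3 markers and a lead in the share of list markers found of 0.2, immune subsets at least 2 and a lead of 0.1.

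The counts of a class were added up in each library and divided by its UMIs to give CPM. Levels have exact Poisson intervals, ratios the exact conditional binomial one, and shares Clopper-Pearson ones. A count of 0 was set to 3 counts per class and library, which makes its ratio a bound. Genes with at least 100 UMIs over the 5 classes are described in full, the others by counts and top class, and of each list of collagen partners the 2 to 4 with the most UMIs in the class. The members, markers and lists were chosen with earlier results of these data known. Alternatives were other mitochondrial, depth and marker limits, other scaling, doublet calls, subtraction of free RNA, means over barcodes and thinning. Promoter sequences are from RefSeq (GRCm38.p6) and matched 27 of 34 members by symbol. Python 3.11.15, numpy 2.4.6, scipy 1.17.1, pandas 2.3.3 and scanpy 1.11.5 were used.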

Additional observations from a re-analysis of the deposited data

Results flagged for a closer look

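Col4a1 went opposite ways in different cells. Its log2 ratio of hKO over WT was 1.21 in endothelium, 1.79 in cholangiocytes and 3.42 in hepatocytes, with more of it in hKO, and −1.70 in fibroblasts. The fibroblast value compares 121 UMIs in 19 WT barcodes with 4 UMIs in 8 hKO barcodes. Col3a1 did likewise, at 1.39 in immune barcodes and −1.37 in fibroblasts. With 1 library per group these differences between classes were not tested.

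Col18a1 was also present outside the barcodes of the report's comparisons, which enter only the alternatives with a higher mitochondrial limit or none. Barcodes over the mitochondrial limit held 1341 Col18a1 UMIs in hKO (137 CPM) and 87 in WT (31.2 CPM), from 6864 and 2645 barcodes. Hepatocyte markers took 4.62% of the UMIs of those hKO barcodes and 2.2% in WT.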

How the results depend on the processing

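Of 1368 alternative values for single collagen genes, 65 moved by more than their counting interval and 3, in genes past the rule, changed sign. Sign changes of genes not past the rule were not counted, and some are among the other 1300. For example, relative to the median gene the log2 ratio of Col4a5 in hepatocytes was 0.17 instead of −0.83. Of 196 counts of genes past the rule, 26 left a range of 1.5 times. The share of all genes past the rule is given for the main setting only. A count that changed under an alternative therefore cannot be read as particular to collagen genes. Of 90 summed ratios 26, of 119 summed levels 39 and of 99 shares of barcodes 33 moved past their counting interval. The genes past the rule in endothelium (Col4a1, Col8a1, Col15a1, Col18a1 and Col25a1) kept their sign and a log2 ratio of at least 1 in all 13 alternatives, with lowest values of 1.13, 3.18, 2.60, 1.75 and 1.16. No paired analysis was possible because each group is 1 library. Leaving out the barcode sequences found in both libraries was chosen after seeing the data and moved no count past 1.5 times. With a limit of 10% no hKO fibroblast barcode remained, so that alternative gives no fibroblast ratio. Its count of lower fibroblast genes was fixed at 0 in advance, though it is 1 of the 26 counts above. Median ratio scaling gives no levels. Depth limits the fibroblasts most: their hKO pool of 7885 UMIs cannot show a level under that of a few counts. The cause of each move below was not tested, apart from fewer barcodes under stricter limits.

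With a mitochondrial limit of 10%, the summed WT CPM was 17585 in fibroblasts and 1553.5 in endothelium, and the summed hKO CPM was 3444.1 in endothelium, 299 in hepatocytes and 40.2 in immune barcodes. The summed log2 ratio was 1.15 in endothelium, 0.77 in hepatocytes, 0.47 in immune barcodes and 0.54 in sinusoidal endothelium, and the count of higher genes was 1 in hepatocytes and 0 in sinusoidal endothelium. The count of lower genes was 2 in endothelium and 2 in immune barcodes. In fibroblasts that count could only be 0, because no hKO barcode remained. The share of WT barcodes with a collagen UMI was 95.9% in endothelium, 55% in hepatocytes and 13.5% in immune barcodes. The share of hKO barcodes with a collagen UMI was 100% in endothelium, 100% in cholangiocytes, 77.3% in hepatocytes and 20.5% in immune barcodes, and the sign turned for Col25a1 in sinusoidal endothelium (−0.85). With a limit of 50%, the summed hKO CPM was 2581.8 in endothelium and 48.7 in immune barcodes, and the summed log2 ratio was 0.79 in endothelium and 0.16 in sinusoidal endothelium. The count of lower genes was 2 in hepatocytes, and the share of WT barcodes with a collagen UMI was 85.9% in endothelium and 31.9% in hepatocytes. The share of hKO barcodes with a collagen UMI was 90.2% in endothelium, 40.2% in hepatocytes and 17.7% in immune barcodes, and the hKO endothelium no longer led the next class for Col5a2 (−1.10) and Col6a3 (−5.27). With no mitochondrial limit, the summed WT CPM was 15141 in fibroblasts, and the summed hKO CPM was 2574.4 in endothelium, 399 in hepatocytes and 49.8 in immune barcodes. The summed log2 ratio was 0.79 in endothelium, 1.03 in hepatocytes and 0.16 in sinusoidal endothelium, and the count of lower genes was 2 in hepatocytes. The share of WT barcodes with a collagen UMI was 85.7% in endothelium, and the share of hKO barcodes with a collagen UMI was 89.7% in endothelium, 40.3% in hepatocytes and 17.9% in immune barcodes. The hKO endothelium no longer led the next class for Col5a2 (−0.97) and Col6a3 (−5.32). With at least 1000 UMIs and 500 genes per barcode, the summed hKO CPM was 3447.5 in fibroblasts, and the summed log2 ratio was −2.23 in fibroblasts. The share of WT barcodes with a collagen UMI was 92% in endothelium and 52.8% in hepatocytes, and the share of hKO barcodes with a collagen UMI was 70.6% in hepatocytes. With 1 more marker required, the summed WT CPM was 14961 in fibroblasts, and the share of WT barcodes with a collagen UMI was 91.9% in endothelium and 97.4% in cholangiocytes. The share of hKO barcodes with a collagen UMI was 100% in cholangiocytes. With mixed barcodes assigned to the class with more markers, the summed WT CPM was 14766 in fibroblasts, 1403.2 in endothelium and 61.6 in immune barcodes, and the summed hKO CPM was 2509.9 in endothelium and 61.9 in immune barcodes. The summed log2 ratio was 0.01 in immune barcodes and 0.17 in sinusoidal endothelium, and the count of higher genes was 3 in other endothelium. The count of lower genes was 3 in immune barcodes and 2 in other endothelium, and the share of WT barcodes with a collagen UMI was 13.9% in immune barcodes. The share of hKO barcodes with a collagen UMI was 19.7% in immune barcodes. With doublet calls also removed, the summed hKO CPM was 2809.4 in endothelium, and the count of lower genes was 0 in cholangiocytes and 0 in immune barcodes. The share of hKO barcodes with a collagen UMI was 17.5% in immune barcodes. With mitochondrial, ribosomal, hemoglobin and hepatocyte marker UMIs left out of the total, the summed WT CPM was 18789 in fibroblasts, 1733.9 in endothelium, 593 in cholangiocytes, 253 in hepatocytes and 36.8 in immune barcodes, and the summed hKO CPM was 10305 in fibroblasts, 3372.9 in endothelium, 732 in cholangiocytes, 670 in hepatocytes and 60.5 in immune barcodes. The summed log2 ratio was 0.96 in endothelium, 1.41 in hepatocytes and 0.38 in sinusoidal endothelium, and the count of lower genes was 1 in fibroblasts. With median ratio scaling, the summed log2 ratio was 0.98 in endothelium, 2.20 in hepatocytes, 0.74 in immune barcodes, 0.40 in sinusoidal endothelium and 0.79 in other endothelium, and the count of lower genes was 0 in immune barcodes. With free RNA subtracted, the summed WT CPM was 7.24 in immune barcodes, and the summed hKO CPM was 378 in hepatocytes and 7.3 in immune barcodes. The summed log2 ratio was 0.01 in immune barcodes, and the count of higher genes was 2 in immune barcodes. The count of lower genes was 1 in endothelium and 0 in immune barcodes, and the sign turned for Col1a1 in immune barcodes (−0.44) and Col5a2 in immune barcodes (0.73). As a mean over barcodes, the summed WT CPM was 12985 in fibroblasts, 1419.8 in endothelium, 167 in hepatocytes and 33.6 in immune barcodes, and the summed hKO CPM was 509 in hepatocytes and 56 in immune barcodes. The summed log2 ratio was −0.59 in fibroblasts, 0.92 in endothelium, 1.61 in hepatocytes and 0.74 in immune barcodes, and the count of higher genes was 2 in cholangiocytes. The count of lower genes was 1 in fibroblasts, 1 in endothelium, 0 in cholangiocytes and 1 in hepatocytes, and the hKO endothelium no longer led the next class for Col5a2 (−1.17) and Col6a3 (−5.14). Without the barcode richest in collagen of each class, the summed WT CPM was 13902 in fibroblasts, and the summed log2 ratio was 0.80 in other endothelium. The count of higher genes was 3 in other endothelium. With a limit of 1.5-fold in the rule, the count of higher genes was 2 in cholangiocytes and 4 in other endothelium, and the count of lower genes was 2 in endothelium. The share of all genes past this looser limit is not given. Thinned to 1000 UMIs, the share of WT barcodes with a collagen UMI was 67.1% in endothelium, 40.7% in cholangiocytes, 16.4% in hepatocytes and 2.87% in immune barcodes, and the share of hKO barcodes with a collagen UMI was 76.4% in endothelium, 38.1% in cholangiocytes, 37.2% in hepatocytes and 4.53% in immune barcodes.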

Other observations

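Barcodes that carried markers of more than 1 class held 2555 collagen UMIs in WT and 1937 in hKO. In WT, 332 of these barcodes joined endothelial and immune markers and held 2348 of the UMIs. In hKO, 1 barcode that joined fibroblast and endothelial markers held 186 collagen UMIs, more than the 56 of the 8 fibroblast barcodes together. Erythroid barcodes stood at 26.8 CPM of collagen in WT and 94 CPM in hKO, and 22 of the 42 hKO UMIs came from 1 barcode.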
